A study of Mus musculus with 8 samples.

Results

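The G protein-coupled receptor kinases and the beta-arrestins were examined in mouse MLL-AF9 leukemia cells. Members were the rows named Adrbk1, Adrbk2, Grk4, Grk5, Grk6, Arrb1 and Arrb2, which are 7 of the 12823 rows of the count table, and all 7 were tested. Adrbk1 and Adrbk2 are the older names of Grk2 and Grk3. Adrbk2 was chosen by its own counts in this comparison, because they were almost lost in the aggressive cells, so its values are given as a description without a test. The other 6 members were taken by family name.

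MLL-AF9 is a fusion oncogene that causes acute myeloid leukemia (AML). In both groups the leukemia began as mouse bone marrow progenitors transduced with a retrovirus that encodes MLL-AF9 and GFP, and RNA came from sorted GFP-positive bone marrow cells. New AML cells (4 libraries) were taken from sublethally irradiated recipients. Aggressive AML cells (4 libraries) were described as the product of that leukemia after it had been passed serially 5 times through mice that were not irradiated. Recipients were male C57BL/6J mice aged 8 to 12 weeks. No additional drug or allele separates the groups. The labels call the samples biological replicates without naming the mouse behind each, so p-values measure the spread between these samples.

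Total counts were 8421384 to 9697777 in new AML and 7805544 to 8704918 in aggressive AML. Defining myeloid leukemia genes were abundant in both groups: myeloperoxidase (Mpo) was at 2399 ± 133 CPM (a gene's count scaled by its library total, ± SD, n = 4) in new and 2092 ± 554 in aggressive AML. The libraries also split by Y-linked genes along the group labels. The 4 Y-linked genes examined (Ddx3y, Eif2s3y, Kdm5d and Uty) summed to 2315 to 2574 counts in each new AML library and to 0 in each aggressive library. The sources used here do not give the sex of the marrow donors, and the cause was not tested. No sequencing batch is recorded, and a batch that follows the groups cannot be told apart from them. In bulk RNA, fewer cells of a type and less RNA per cell cannot be told apart either.

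G protein-coupled receptors that have bound a ligand activate heterotrimeric G proteins. Receptor kinases phosphorylate such active receptors, and beta-arrestins then bind the phosphorylated tail, uncouple the G protein and link the receptor to clathrin for internalisation. Adrbk1 and Adrbk2 encode the kinases that are brought to the membrane by free G protein beta-gamma subunits. Grk4, Grk5 and Grk6 encode the kinases that stay at the membrane by their own lipid or phospholipid contacts. Arrb1 and Arrb2 encode the broadly expressed beta-arrestins, which also serve as scaffolds for other kinases. In blood cells the system is known for tuning responses to chemokines and lipid mediators.

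Because Adrbk2 has a close relative that is far more abundant, it matters whether reads of one could be counted for the other. The coding sequences of Adrbk1 (2070 bases) and Adrbk2 (2067 bases) were identical at 74.7% of 2067 aligned bases. Their longest shared run was 30 bases, starting at coding base 34 of each. The window around it is printed 5′ to 3′ from GENCODE M21 transcripts, with the 7 mismatched positions in capitals. Both windows cover coding bases 4 to 93 in exon 1, at chr19:4305922-4306011 on the minus strand for Adrbk1 and at chr5:113015387-113015476 on the minus strand for Adrbk2 (mm10).
Adrbk1: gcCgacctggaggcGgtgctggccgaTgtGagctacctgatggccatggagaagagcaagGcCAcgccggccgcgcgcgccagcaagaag
Adrbk2: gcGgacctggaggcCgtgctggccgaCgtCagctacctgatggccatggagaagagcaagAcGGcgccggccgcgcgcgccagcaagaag

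The pair of arrestins was printed for the same reason. Arrb1 and Arrb2 coding sequences were identical at 73.1% of 1206 aligned bases, with a longest shared run of 18 bases. The window of Arrb1 covers coding bases 1025 to 1076 in exon 14 (chr7:99598490-99598541, plus strand). That of Arrb2 covers coding bases 1004 to 1055 across exons 12 and 13 (chr11:70439555-70439712, plus strand, intron included in the span). Capitals mark the 11 mismatched positions.
Arrb1: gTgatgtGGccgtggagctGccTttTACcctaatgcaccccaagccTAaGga
Arrb2: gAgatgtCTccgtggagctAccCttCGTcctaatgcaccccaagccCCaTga

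No run of 50 bases was shared between any of the 7 members over all their GENCODE transcripts. The share of 50-base runs that also occur in a gene outside the family was 0.15% for Adrbk1, 0.05% for Adrbk2 and 3.25% for Grk4, the highest of the members. Exons of 6 members overlapped no other annotated gene. Arrb2 shared 64 exon bases (2.2%) with Mir7115.

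Adrbk2, the kinase gene also called Grk3 (chromosome 5, 112910478 to 113015660, minus strand), had 150, 125, 97 and 170 counts in new AML replicates 1 to 4. In aggressive AML it had 1, 1, 6 and 0 counts. As CPM these are 15.4, 14.9, 10.8 and 18.9 against 0.12, 0.118, 0.777 and 0. Every new AML library was thus above every aggressive one, and replicate 3 held 6 of the 8 counts seen in aggressive AML. That replicate has 0 Y-linked counts, as do the other aggressive libraries.

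The mean level of Adrbk2 was 15 ± 3.33 CPM in new and 0.254 ± 0.353 CPM in aggressive AML (SD, n = 4). Summed over libraries, 542 counts stood against 8, and the level in aggressive AML was 1.6% of that in new AML (exact 95% interval 0.687% to 3.18%, counting error only) or 62.5-fold lower. The fitted log2 fold change was -5.88, and -7.34 without aggressive AML replicate 3. This size depends on how near-zero counts are handled, since it was -3.69 on the log2(CPM + 1) scale. The plot of member levels by library shows the new AML points of Adrbk2 between 10.8 and 18.9 CPM and the aggressive points at the axis.

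**Figure D1:**
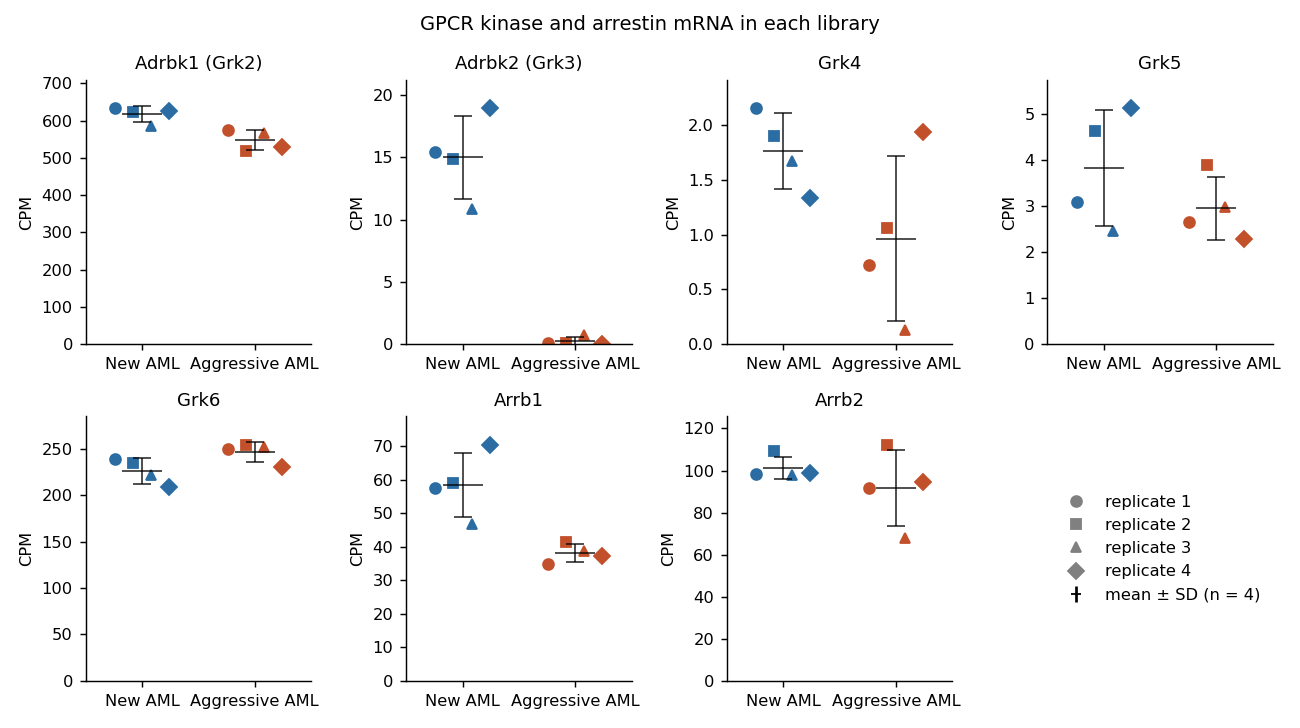
CPM of the 7 members (vertical axes, linear and starting at 0, 1 panel per gene) in the 4 new AML and 4 aggressive AML libraries (points), with group means (lines) and SD (bars). Groups did not overlap for Adrbk1, Adrbk2 and Arrb1, while Grk4, Grk5, Grk6 and Arrb2 overlapped.

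Levels of different genes were compared as CPM per kb of exon. In new AML the order was Adrbk1 (138 ± 4.89 CPM per kb), Grk6 (53.8 ± 3.26), Arrb2 (35.5 ± 1.89), Arrb1 (5.23 ± 0.864), Adrbk2 (1.73 ± 0.383), Grk5 (0.542 ± 0.179) and Grk4 (0.366 ± 0.072). Neighbours in this order had separate ranges except Grk5 and Grk4, whose order also turned when the length of 1 representative transcript was used (0.581 and 0.734 CPM per kb). Adrbk2 was therefore a minor kinase transcript in new AML as well. Within each new AML library, Adrbk1 made up 70.4% to 72.6% of the summed level of the 5 kinases per kb, and Adrbk2 0.671% to 1.13%.

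In aggressive AML the order per kb was Adrbk1 (122 ± 6.06), Grk6 (58.7 ± 2.67), Arrb2 (32.2 ± 6.39), Arrb1 (3.41 ± 0.245), Grk5 (0.418 ± 0.0976), Grk4 (0.199 ± 0.156) and Adrbk2 (0.0292 ± 0.0407). Ranges of Grk5 and Grk4 overlapped, as did those of Grk4 and Adrbk2. Adrbk2 moved from the fifth place to the last, and the others kept their order on this scale. By the length of 1 representative transcript, Grk4 lay above Grk5 in new AML and below it in aggressive AML (0.399 and 0.448 CPM per kb), with overlapping ranges. Adrbk1 made up 65.4% to 68.2% of the kinase sum per kb there, and Adrbk2 0% to 0.0478%.

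**Figure D2:**
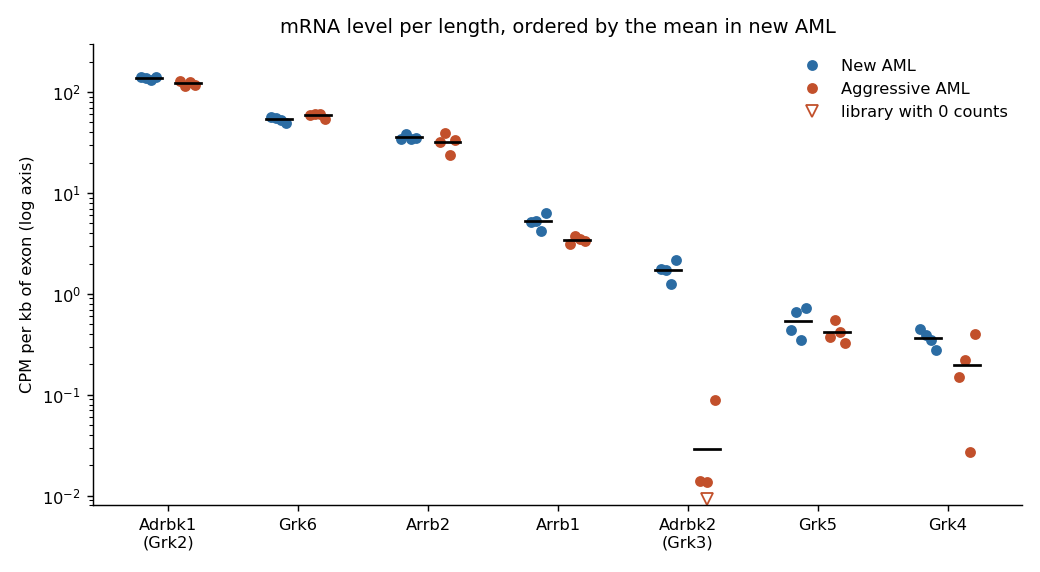
Level of each member in CPM per kb of exon (vertical, log axis) in new and aggressive AML libraries (points), ordered along the horizontal axis by the mean in new AML. Adrbk1, Grk6 and Arrb2 lie above 20 CPM per kb in all 8 libraries, while Grk4 and Grk5 lie below 1.

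Of all 12494 tested genes, 18.4% were called at an adjusted p under 0.05 by the edgeR quasi-likelihood test, 8.15% higher and 10.2% lower in aggressive AML. Of the 6 members other than Adrbk2, 1 was called. That gene was Arrb1, in the lower direction. Grk4, which was not called, passed the filter on low values only through the new AML group, in which it was higher. Groups did not overlap for 21.8% of all tested genes and for 2 of these 6 members, Adrbk1 and Arrb1.

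Adrbk1 encodes GRK2, the ubiquitous receptor kinase (chromosome 19, 4285999 to 4306222, minus strand). It was at 634, 624, 585 and 626 CPM in new AML and at 575, 519, 566 and 531 CPM in aggressive AML. Each aggressive library lay below each new one, by a narrow margin. The log2 fold change was -0.17 (95% interval -0.31 to -0.03), with an unadjusted p of 0.0204 and an adjusted p of 0.0845 (edgeR), so the difference did not pass the threshold. Among all tested genes, 32.6% had an unadjusted p under 0.05.

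Grk6 (chromosome 13, 55445072 to 55460927, plus strand) encodes a kinase known for acting on chemokine receptors of leukocytes. Its values were 239, 235, 221 and 209 CPM in new and 249, 254, 252 and 230 CPM in aggressive AML. The groups overlapped through aggressive AML replicate 4, and the log2 fold change of 0.13 (95% interval -0.03 to 0.28) was not called (adjusted p = 0.245, edgeR).

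The other membrane-resident kinases had low counts. Grk5 (chromosome 19, 60889560 to 61095968, plus strand) had 22 to 46 counts per new AML library and 20 to 33 per aggressive library. It was at 3.08, 4.64, 2.45 and 5.13 CPM in new and 2.65, 3.89, 2.98 and 2.28 CPM in aggressive AML. These overlap widely, with a log2 fold change of -0.37 (95% interval -1.0 to 0.26, adjusted p = 0.414, edgeR).

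Grk4 (chromosome 5, 34660250 to 34755305, plus strand), best known from testis and kidney, had 21, 16, 15 and 12 counts in new AML and 6, 9, 1 and 17 in aggressive AML. At 1.77 ± 0.348 and 0.962 ± 0.754 CPM it met the filter on low values only through the new AML group. Aggressive AML replicate 4 lay inside the new AML range and the other 3 below it. The log2 fold change was -0.84 (95% interval -1.86 to 0.18), a wide interval that includes 0. New AML is the group in which Grk4 was higher, so its values are a description and no p is given.

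The kinases other than Adrbk2 were also summed per kb in each library. The log2 of this sum was 7.59 ± 0.05 in new and 7.50 ± 0.06 in aggressive AML, a difference of -0.08 (exact two-sided permutation p = 0.114, adjusted over 2 such tests 0.114). With 4 libraries against 4 the smallest p this test can give is 0.0286. The sum is mostly Adrbk1 and Grk6. The summed level of the other kinases was thus not higher in the libraries in which Adrbk2 was nearly absent.

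Arrb1, encoding beta-arrestin 1 (chromosome 7, 99535147 to 99606772, plus strand), was at 57.6, 59.0, 46.8 and 70.4 CPM in new AML. In aggressive AML it was at 34.9, 41.5, 38.9 and 37.3 CPM. All aggressive libraries lay below all new ones, and they were closer together (58.5 ± 9.65 against 38.1 ± 2.74 CPM, SD, n = 4). Arrb1 fell by 34.7%, with a log2 fold change of -0.62 (SE 0.12, 95% interval -0.87 to -0.36, adjusted p = 0.00209, edgeR). It was called in each of the 16 alternative fits, with adjusted p from 4.58e-05 to 0.0091.

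Arrb2, encoding beta-arrestin 2 (chromosome 11, 70432485 to 70440828, plus strand), was at 98.2, 109, 98.0 and 99.1 CPM in new and at 91.9, 112, 68.0 and 94.6 CPM in aggressive AML. The groups overlapped, and aggressive AML replicate 3 was the lowest library by far. The log2 fold change was -0.14 (95% interval -0.39 to 0.11, adjusted p = 0.439, edgeR), and -0.02 without that replicate.

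Per kb, Arrb1 was the lesser beta-arrestin transcript in every library. The log2 ratio of Arrb1 to Arrb2 per kb was -2.74, -2.86, -3.04 and -2.47 in new AML and -3.37, -3.41, -2.78 and -3.31 in aggressive AML. The first, second and last aggressive libraries lay below all new ones, and replicate 3, in which Arrb2 was low, lay among them. The mean difference was -0.44 (exact two-sided permutation p = 0.0857, adjusted over 2 such tests 0.114), and -0.59 (p = 0.0571) without replicate 3. In that second comparison the groups were fully apart, so these values could give no smaller p for a lower aggressive group. It therefore cannot decide whether the balance differed. With every library kept, a different balance of the arrestins was not shown, although Arrb1 was called and Arrb2 was not.

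**Figure D3:**
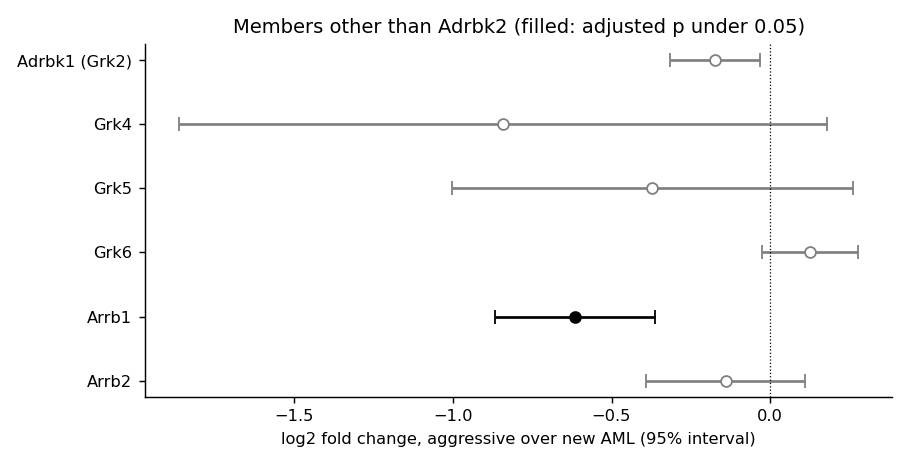
Log2 fold change (horizontal axis, aggressive over new AML) of the 6 members other than Adrbk2 (vertical axis), with 95% intervals from the edgeR fit and a filled point where the adjusted p is under 0.05. Arrb1 alone is filled, the interval of Adrbk1 also lies below 0, and that of Grk4 is the widest of the 6, from -1.86 to 0.18.

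The genes around the kinases and arrestins were counted in 6 lists of known roles, with 145 genes tested. Of these, 49 were called (18.4% of all tested genes were), and 37 to 51 over the alternatives that kept all 145 genes. The 49 include genes that passed the filter only through the group in which they were higher, so this count is a description. Among receptors, 0 of 39 were called higher and 17 lower, beside 8.15% and 10.2% of all tested genes, and 30 of 39 had fold changes below 0. Their median log2 fold change was -0.57, and the median over all tested genes was 0.00. The number of receptors called lower was 15 to 19 when 1 library was left out. Without aggressive AML replicate 3, 1 receptor was called higher. Of the 39, 8 reached 1 CPM in every new AML library but not in every aggressive one, and 5 of these, Ccr7, Cysltr1, Ffar2, P2ry6 and P2ry13, are among the 17. Such genes passed the filter only through the group in which they were higher, so the counts and the median are a description. With the filter of 5 CPM in 4 libraries, 11 of 25 receptors were called lower and 0 higher, and 1968 of all 10337 genes were called in either direction. That filter has the same limit. Cysltr1 and Gpr183, both called lower, reached 5 CPM in every new AML library and in no aggressive one.

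Cysltr1, a receptor for cysteinyl leukotrienes, fell from 14.4 ± 3.69 to 1.09 ± 0.417 CPM (log2 fold change -3.68). It passed the filter only through the new AML group, so its values are a description and no p is given. S1pr3, a receptor for sphingosine 1-phosphate, fell from 29.4 ± 5.13 to 7.74 ± 1.46 CPM (-1.92, adjusted p = 2.1e-06, edgeR). Gpr183, the oxysterol receptor that guides lymphoid and myeloid cell position, fell from 7.64 ± 1.61 to 3.33 ± 0.324 CPM (-1.20, adjusted p = 0.00164, edgeR). Cxcr4, the receptor for CXCL12 and a known substrate of this kinase family, is added here after its values were seen. It was at 327 ± 28.9 CPM in new and 281 ± 94.9 CPM in aggressive AML (log2 fold change -0.22, adjusted p = 0.393, edgeR), which is not a call.

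Markers of maturing myeloid cells moved with the receptors. All 7 neutrophil genes examined were called lower (median log2 fold change -1.53), beside 10.2% of all tested genes. Their summed level was 294 to 442 CPM in new and 141 to 191 CPM in aggressive AML. Of the 5 macrophage markers, Adgre1 and Mrc1 were in the table and Adgre1 was called lower, with sums of 61.3 to 104 and 37.2 to 56.0 CPM. The 6 myeloid leukemia genes went both ways. The progenitor receptor Kit rose from 105 ± 18.3 to 165 ± 17.5 CPM (log2 fold change 0.65, adjusted p = 0.0014, edgeR) and the homeobox gene Meis1 from 100 ± 3.63 to 138 ± 27.9 CPM (0.45, adjusted p = 0.0117). The integrin gene Itgam fell from 495 ± 90.2 to 324 ± 20.2 CPM (-0.61, adjusted p = 0.00122), and Mpo (-0.20), Ptprc (-0.13) and Hoxa9 (0.10) were not called. Of the 8 interferon response genes, 6 were in the table and 5 were called lower, beside 10.2% of all tested genes. Their sums were 211 to 417 CPM in new AML, highest in replicate 3, and 96.0 to 136 CPM in aggressive AML. Mmp9 of the neutrophil genes and Ifit1 of the interferon genes passed the filter only through the new AML group. The counts of calls and the neutrophil median are therefore a description. The part of all these marker genes in the receptor and arrestin results was not tested.

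Markers of lymphoid and other blood cells were at lower sums than those of neutrophils. The sum was 36.6 to 42.2 and 30.6 to 33.7 CPM for B cells (3 of 4 genes in the table), 15 to 27.7 and 25.8 to 33.0 CPM for NK cells (2 of 4), and 2.85 to 3.90 and 3.53 to 6.02 CPM for T cells (1 of 4), in new and aggressive AML. Erythroid genes (6 of 6) summed to 25 to 93.1 and 8.72 to 49.8 CPM, and the 1 megakaryocyte gene in the table was at 4.68 to 8.58 and 2.17 to 5.44 CPM. Of the tested genes in these lists, the NK cell gene Nkg7 was called higher (14.9 ± 5.0 against 24.1 ± 4.3 CPM, log2 fold change 0.70, adjusted p = 0.0225, edgeR) and the globin gene Hba-a1 lower (16.3 ± 6.78 against 8.05 ± 3.51 CPM, -1.02, adjusted p = 0.048, edgeR). Klrk1, the other NK cell gene in the table, went the other way and was not called (5.33 ± 1.90 against 4.14 ± 1.59 CPM, -0.37, adjusted p = 0.441, edgeR). Their part in the results above was not tested.

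G protein subunits went both ways, with 4 of 22 tested called higher, 6 called lower (8.15% and 10.2% of all tested genes) and a median of 0.02. Gna14 and Gngt2, both called lower, reached 1 CPM in every new AML library but not in every aggressive one. Gng3, called higher, reached it in every aggressive library but not in every new one. Such genes passed the filter only through the group in which they were higher, so these counts and the median are a description. Gng2, a gamma subunit, fell from 92.0 ± 13.3 to 44.9 ± 6.22 CPM (log2 fold change -1.04, adjusted p = 3.92e-05, edgeR). Gna15, the blood cell alpha subunit of the Gq class, fell from 61.0 ± 6.88 to 35.7 ± 6.86 CPM (-0.77, adjusted p = 0.000889). Gng12, another gamma subunit, rose from 305 ± 6.63 to 417 ± 51.6 CPM (0.45, adjusted p = 0.0018), and the inhibitory alpha subunit Gnai3 from 274 ± 14.5 to 349 ± 32.2 CPM (0.35, adjusted p = 0.00569). Gnai2, the main inhibitory alpha subunit of blood cells, was called lower (832 ± 62.1 against 708 ± 27.3 CPM, -0.23, adjusted p = 0.0333). That call was lost without new AML replicates 1 (0.096) or 2 (0.0933), or without aggressive AML replicates 1 (0.0778), 2 (0.0826) or 4 (0.0872), and with the filter of 5 CPM (0.0533).

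Among effectors of cyclic AMP and phospholipid signalling, 4 of 26 were called higher and 8 lower (8.15% and 10.2% of all tested genes), with a median of -0.05. Both regulatory subunits of the G beta-gamma-activated PI 3-kinase fell: Pik3r5 from 26.4 ± 1.66 to 9.30 ± 2.23 CPM (log2 fold change -1.50, adjusted p = 1.54e-05, edgeR) and Pik3r6 from 48.2 ± 7.35 to 28.0 ± 4.84 CPM (-0.78, adjusted p = 0.00107). Pik3cg, the catalytic subunit of that enzyme, is added here after its values were seen. It was not called (202 ± 23.6 against 195 ± 19.0 CPM, -0.05, adjusted p = 0.748, edgeR). Rapgef4, a cyclic AMP-activated exchange factor, fell from 11.2 ± 2.75 to 4.81 ± 0.482 CPM (-1.22, adjusted p = 0.000968). In the other direction, the adenylyl cyclase gene Adcy6 rose from 6.11 ± 2.22 to 16.6 ± 5.29 CPM (1.43, adjusted p = 0.00125), and the cyclic AMP phosphodiesterase gene Pde8a from 15.9 ± 0.8 to 26.0 ± 3.69 CPM (0.71, adjusted p = 0.00146). Prkar2a, a regulatory subunit of protein kinase A, was called higher (16.6 ± 4.35 against 23.8 ± 1.69 CPM, 0.52, adjusted p = 0.0392). It lost the call without new AML replicates 1 (0.0552), 2 (0.118) or 4 (0.113), or without aggressive AML replicates 1 (0.0609), 2 (0.0726) or 3 (0.0698).

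The machinery that takes receptors into the cell had the smallest share of called genes among the 6 lists. Of 34 internalisation and sorting genes, 1 was called higher and 1 lower, or 2 in all, beside 18.4% of all tested genes. Nedd4, a ubiquitin ligase, rose from 96.2 ± 10.6 to 174 ± 19.6 CPM (log2 fold change 0.85, adjusted p = 3.76e-05, edgeR). Ap2b1, the subunit of the clathrin adaptor to which beta-arrestins bind, fell from 199 ± 9.32 to 152 ± 14.2 CPM (-0.39, adjusted p = 0.00359, edgeR).

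Of 10 regulators and partners of the kinases, 1 was called higher and 2 lower, 3 in all beside 18.4% of all tested genes. Prkca, a protein kinase C gene, fell from 8.19 ± 1.57 to 2.96 ± 0.533 CPM (log2 fold change -1.46, adjusted p = 0.000456, edgeR). Calm2, 1 of the calmodulin genes, rose from 423 ± 35.6 to 515 ± 21.4 CPM (0.28, adjusted p = 0.016, edgeR). Git2, which encodes a kinase-interacting ARF GTPase-activating protein, was called lower although its groups overlapped (229 ± 21.4 against 188 ± 19.8 CPM, -0.28, adjusted p = 0.0431). Without new AML replicates 1 (0.0808), 2 (0.119) or 4 (0.121), or aggressive AML replicates 2 (0.103) or 3 (0.0958), it was not called.

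Genes of arrestin-scaffolded signalling had 2 of 14 called higher and 3 lower, 5 in all beside 18.4% of all tested genes. Lyn, a tyrosine kinase gene, fell from 174 ± 13.7 to 137 ± 8.31 CPM (log2 fold change -0.35, adjusted p = 0.00695, edgeR), and Fgr, also a tyrosine kinase gene, from 6.60 ± 2.86 to 2.93 ± 0.627 CPM (-1.17, adjusted p = 0.0132). Fgr was not called without new AML replicate 4 (0.0552). Both are abundant in mature myeloid cells, whose markers moved as given above, and the part of that was not tested. Nfkbia, the inhibitor of NF-kappa-B, rose from 76.7 ± 13.8 to 110 ± 6.82 CPM (0.52, adjusted p = 0.00437). Traf6, a ubiquitin ligase of the same pathway, was called higher with overlapping groups (66.3 ± 5.83 against 84.2 ± 14.9 CPM, 0.34, adjusted p = 0.0483). It lost the call without new AML replicates 2 (0.135), 3 (0.0937) or 4 (0.0993), without aggressive AML replicates 1 (0.0929) or 3 (0.118), in both limma fits (0.0527 and 0.059) and with library totals only (0.0513).

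**Figure D4:**
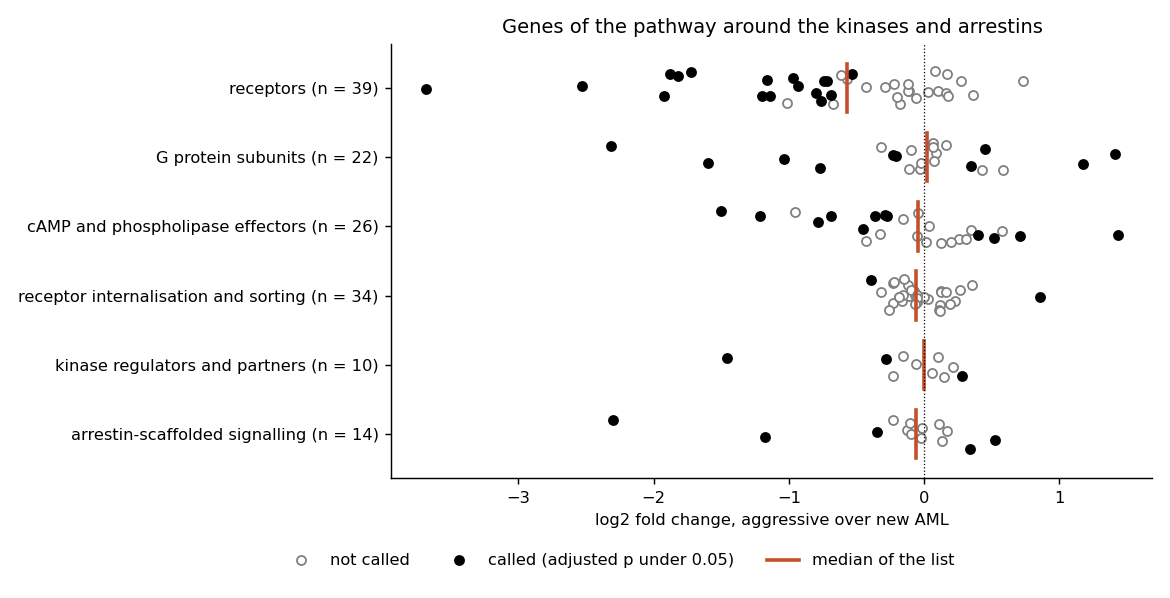
Log2 fold change (aggressive over new AML) of each tested gene in the 6 pathway lists (horizontal axis, 1 point per gene, filled where called), with list medians as lines. Receptors have a median of -0.57, while the medians of the other lists lie between -0.06 and 0.02.

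The tested genes most like Adrbk2 over the 8 libraries were found by the root mean square difference of centred log2 CPM profiles. They were LOC102637578 (0.83), Bcl11a (1.03), Cttn (1.04), Slc24a2 (1.09) and the Y-linked gene Uty (1.11). LOC102637578 was at 3.66 ± 1.22 CPM in new AML and at 0 counts in each aggressive library. Bcl11a, a transcription factor gene, was at 6.26 ± 1.33 CPM in new AML and had 4, 4, 2 and 1 counts in aggressive AML. By the same measure all other members were farther from Adrbk2 than these genes, from Arrb1 (2.36, rank 699) to Grk6 (2.72, rank 8268). Adrbk2 was chosen by its loss in aggressive AML, so this likeness is a description.

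The 5 nearest tested genes on each side of Adrbk2 on chromosome 5 were read from the same fit. Of these 10 genes, 3 were called (18.4% of all tested genes), 1 higher and 2 lower. Myo18b, the nearest tested gene on the side of lower coordinates, rose from 90.8 ± 12 to 123 ± 5.69 CPM (log2 fold change 0.44, adjusted p = 0.00503, edgeR). The neighbour on the other side, 2900026A02Rik (start 176 kb away), fell from 9.0 ± 1.03 to 2.90 ± 0.667 CPM (-1.63, adjusted p = 0.000132, edgeR). Tpst2, whose start lies 634 kb away on the side of Myo18b, fell from 67.7 ± 4.91 to 49.0 ± 4.76 CPM (-0.47, adjusted p = 0.00336, edgeR). The calls of all 3 held when each library was left out in turn. The other 7 (Tfip11, Srrd, Hps4, Ficd, Sart3, Iscu and Tmem119) were not called, with adjusted p from 0.0771 to 0.912, although Hps4 and Sart3 were each called in 1 of 8 fits that left out a library.

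**Figure D5:**
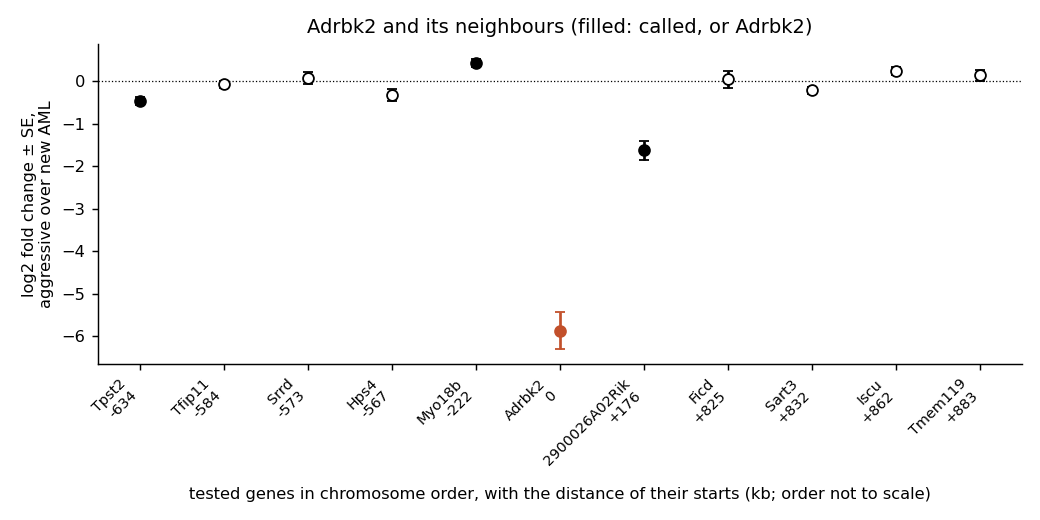
Log2 fold change (vertical axis, aggressive over new AML, bars for the SE) of Adrbk2 and its 5 nearest tested genes on each side, in chromosome order with the distance of their starts in kb below the names (horizontal axis, not to scale). Filled points are called genes and Adrbk2. Adrbk2 is at -5.88, its neighbours lie between -1.63 and 0.44, and the genes next to it on either side went in opposite directions.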

How the data were processed

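RNA of GFP-positive MLL-AF9 leukemia cells was measured by poly(A) RNA-seq in 8 libraries, 4 per group. The authors aligned paired-end reads to mm10 with HISAT2, counted reads per gene with Rsubread and removed genes of low CPM; annotation and strand setting are not given in the sources used here. The deposited values are whole read counts with a different total per library, although the table is named for CPM, and they were used as raw counts. The test was the quasi-likelihood F test of edgeR 4.0.16 (R 4.3.3) with TMM scaling, on genes that reached 1 CPM in 4 or more libraries (12494 tested, 329 left out). P-values were two-sided and adjusted by the Benjamini-Hochberg method over all tested genes, with a threshold of 0.05. The model held the group alone. CPM values carry the TMM factors, and standard errors were back-calculated from F and the fold change.

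Members and gene lists were chosen with earlier results of these data known. Named genes are the 7 members, up to 3 called genes per direction and pathway list with the largest change and at least 5 CPM in the higher group, the 5 genes most like Adrbk2, its 5 nearest tested genes on each side, and marker genes. A gene that this rule selects is not reported here. Of the row names, 97.4% matched RefSeq of GRCm38.p6, 12029 directly and 455 by an older symbol. Coordinates are from RefSeq, exon lengths and coding sequences from GENCODE M21 of the same build. Derived values were compared by exact two-sided permutation over the 70 choices of 4 libraries. Alternatives were DESeq2 1.42.0, limma 3.58.1, other scalings, other filters, a replicate block and leaving out each library. The scripts were tested on simulated data.

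Library totals were 7805544 to 9697777 counts, so that 1 count was worth 0.103 to 0.13 CPM. The chi-square of replicate pairs per degree of freedom is above that of sampling noise in every pair (4.04 to 10.9), and all libraries were kept as separate replicates.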

Additional observations from a re-analysis of the deposited data

Results flagged for a closer look

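In 18 groups of 4 values (the members and derived values, each group apart), 3 had a library whose gap to the nearest other, divided by the range, exceeded Dixon's critical value for 4 values. Chance flags about 1 in 20 groups where values are normal and groups independent. The derived values are built from the members and some counts are near 0, so that rate is only a rough guide here. Adrbk2 in aggressive AML had a value of 0.845, since replicate 3 was at 0.777 CPM (6 counts) and the others at 0.12 CPM or below. Arrb2 in new AML had a value of 0.906, since replicate 2 was at 109 CPM and the others between 98.0 and 99.1 CPM. The log2 ratio of Arrb1 to Arrb2 in aggressive AML had a value of 0.848, with replicate 3 at -2.78 and the others between -3.41 and -3.31.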

How the results depend on the processing

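Over 16 alternatives, 1 of 6 members other than Adrbk2 was called each time, and the fold changes of Adrbk1, Grk4, Grk5, Grk6, Arrb1 and Arrb2 kept their direction and their side of the threshold. Grk4 and Grk5 had no value with the filter of 5 CPM. The number of genes called was 2296, with a range of 1601 to 2439 when 1 library was left out (1 CPM in at least 3 libraries), 2538 with DESeq2, 2328 with limma on log2(CPM + 1), 2278 with limma-voom, 2355 without a filter and 1968 with the filter of 5 CPM. Pathway genes called were 49, with 37 to 47 when 1 library was left out and 36 of 120 with the filter of 5 CPM. The fold change of Adrbk2 moved to -3.69 with limma on log2(CPM + 1) and to -7.34 without aggressive AML replicate 3. The difference in the log2 ratio of Arrb1 to Arrb2 was -0.59 to -0.34 and that in the summed kinases -0.11 to -0.06 when 1 library was left out.

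The groups share replicate numbers 1 to 4. With the number as a replicate block, 2367 genes, 48 pathway genes and 1 member were called. Deviations of same-numbered libraries correlated at 0.122, -0.0236, -0.0589 and 0.179. New AML replicates 1 and 4 correlated best with their own number. New AML replicate 2 correlated best with aggressive replicate 4 (0.0649) and replicate 3 with aggressive replicate 2 (0.111). These small and mixed values cannot decide whether same-numbered samples share more than a number. Depth limits Grk4, Grk5 and Adrbk2, where 1 count was worth 0.103 to 0.13 CPM.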
